A study of Mus musculus with 9 samples.

Results

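The dual specificity phosphatases that act on MAP kinases were followed through a 3 h starvation of mouse embryonic stem (ES) cells for a single amino acid (AA). The group was defined by name as 10 genes, Dusp1, Dusp2, Dusp4, Dusp5, Dusp6, Dusp7, Dusp8, Dusp10, Dusp14 and Dusp16, and was chosen because Dusp8 responded strongly in these data. All 10 had a row among the 20189 genes of the count table, and all 10 were among the 20143 genes tested. Since the response of Dusp8 chose the group, its values are given as a description without a test, and tests are read for the other 9 genes only.

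E14 is a mouse ES cell line, and the titles of the unstarved samples call it wild type (Wt). It was grown on gelatin without feeder cells and with leukemia inhibitory factor, which holds the cells in the pluripotent state. Poly(A) RNA was sequenced from 3 libraries of unstarved cells, kept in medium with all AAs, 3 libraries of cysteine (Cys)-starved cells and 3 libraries of threonine (Thr)-starved cells. The starvation medium held dialyzed serum, leukemia inhibitory factor and the reducing agent β-mercaptoethanol in all groups, as far as the labels describe it, although their description of the omitted AAs names only Arg and Leu. A single cell line was used and nothing says that the libraries of a group came from separate experiments, so p-values measure the spread between these libraries, which may be technical.

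Total counts were 54294288 to 61459894 in the unstarved, 57700492 to 62657358 in the Cys-starved and 48763102 to 74962733 in the Thr-starved libraries. Levels are given as CPM, the counts of a gene relative to the total of its library after TMM scaling of that total, and changes as log2 fold change with its standard error (SE). The 8 pluripotency markers summed to 3845 to 3882 CPM in the unstarved and 3725 to 3744 CPM in the Cys-starved libraries. In the Thr-starved libraries the sum was 4137 to 4226 CPM, but the markers moved in both directions. Klf4, Sox2, Esrrb, Tfcp2l1 and Zfp42 changed by 0.85, 0.44, 0.43, 0.17 and 0.12 on the log2 scale with Thr starvation. Nanog, Pou5f1 and Dppa5a changed by -0.42, -0.17 and -0.12. Markers of fibroblasts (3 of 6 in the table) summed to 8.76 to 12.6 CPM over all libraries, of endoderm (4 of 4) to 3.17 to 5.43 CPM, of mesoderm (3 of 4) to 2.63 to 7.49 CPM and of neuroectoderm (2 of 3) to 15.5 to 25.8 CPM. The mesoderm sum was lowest in the Thr-starved libraries, at 2.63 to 2.83 CPM. With Thr starvation T and Eomes changed by -1.56 and -1.53 on the log2 scale, but Mixl1 changed by 0.29. Endoderm markers were lowest in the unstarved libraries, at 3.17 to 3.41 CPM beside 4.30 to 5.07 CPM in Cys-starved and 4.63 to 5.43 CPM in Thr-starved libraries, and neuroectoderm markers were also lowest in the unstarved libraries. Their part in the results below was not tested. In bulk RNA, fewer cells that express a gene and less of its RNA per cell cannot be told apart.

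MAP kinases are switched on by phosphorylation of a threonine and a tyrosine in their activation loop, and dual specificity phosphatases switch them off by removing both phosphates. The typical members bind their kinase through a separate domain and differ in which kinases they favour: ERK, which carries growth factor signals and drives ES cells towards differentiation, or JNK and p38, which are activated by stress. Many of these phosphatases are themselves transcribed upon kinase activation and close a negative feedback loop. Their mRNA levels do not report phosphatase activity, which was not measured here.

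The promoters of the genes that were higher under both starvations and are directed at JNK and p38 (Dusp8, Dusp10 and Dusp16) are shown with that of Dusp1, the member that shares an 8-letter motif with Dusp8. The sequences come from the RefSeq promoter table for GRCm38.p6, run from 250 bases before to 50 bases after a start annotated there, and were found for 9 of the 10 genes. For Dusp1, Dusp5, Dusp8, Dusp10 and Dusp14 this start lies inside the gene span given below, which comes from GENCODE and begins further upstream. Positions of motifs refer to the start in the RefSeq table. They lie at chr7:142095235-142095534 (Dusp8, minus strand), chr1:184034131-184034430 (Dusp10, plus strand), chr6:134792579-134792878 (Dusp16, minus strand) and chr17:26508423-26508722 (Dusp1, minus strand). Capitals mark the cAMP response element TGACGTCA, the site of the ATF and CREB families of factors, and its core TGACG, which lies within TGACGTCA. Each is read 5′ to 3′ on the strand of the gene.
Dusp8: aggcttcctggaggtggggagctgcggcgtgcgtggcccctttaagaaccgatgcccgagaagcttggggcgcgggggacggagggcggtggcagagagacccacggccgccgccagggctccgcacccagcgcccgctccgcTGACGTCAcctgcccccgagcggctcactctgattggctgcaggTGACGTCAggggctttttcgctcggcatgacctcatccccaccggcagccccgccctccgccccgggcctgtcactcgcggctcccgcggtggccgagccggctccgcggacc
Dusp10: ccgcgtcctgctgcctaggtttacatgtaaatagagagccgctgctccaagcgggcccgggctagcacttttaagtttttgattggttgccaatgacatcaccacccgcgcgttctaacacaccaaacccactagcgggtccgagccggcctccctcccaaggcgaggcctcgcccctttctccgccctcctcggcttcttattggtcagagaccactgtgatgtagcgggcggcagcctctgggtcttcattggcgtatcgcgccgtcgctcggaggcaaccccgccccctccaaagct
Dusp16: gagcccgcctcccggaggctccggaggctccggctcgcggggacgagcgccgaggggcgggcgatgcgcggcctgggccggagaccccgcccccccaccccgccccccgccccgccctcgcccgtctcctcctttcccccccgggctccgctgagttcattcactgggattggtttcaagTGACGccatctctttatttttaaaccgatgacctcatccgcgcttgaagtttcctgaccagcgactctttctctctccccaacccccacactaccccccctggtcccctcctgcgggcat
Dusp1: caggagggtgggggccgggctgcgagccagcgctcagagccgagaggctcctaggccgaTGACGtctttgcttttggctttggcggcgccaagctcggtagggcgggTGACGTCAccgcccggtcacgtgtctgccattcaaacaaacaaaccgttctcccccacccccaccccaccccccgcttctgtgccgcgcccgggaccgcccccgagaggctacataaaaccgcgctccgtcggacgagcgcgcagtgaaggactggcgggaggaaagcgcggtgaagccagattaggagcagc

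Both strands were searched for TGACGTCA, TGACG, the AP-1 site TGANTCA, the C/EBP-ATF element TGATGNAA, the ETS site CCGGAAG and the serum response element. The Dusp8 promoter held TGACGTCA at 2 places, 107 to 100 and 63 to 56 bases before the start, and the Dusp1 promoter held it at 143 to 136 bases before the start. Of all 32851 promoters of that length, 1.79% held TGACGTCA and 20.8% held TGACG. Dusp1 had a further TGACG at 191 to 187 bases before the start, Dusp16 had TGACG at 70 to 66 bases before the start, and Dusp10 had none of the motifs. Dusp5 had the core on the opposite strand at 55 to 51 bases before the start and 2 adjoining serum response elements, CCATATTTGG and CCTTATATGG, at 82 to 63 bases, an element found in 1.63% of promoters. Dusp2 had the core on the opposite strand, 5 to 9 bases after the start. Dusp6, Dusp7 and Dusp14 held none of the 6 motifs. No promoter of the 9 genes held TGANTCA, TGATGNAA or CCGGAAG, which were present in 7.81%, 3.97% and 8.86% of all promoters. A match describes the letters only and says nothing of binding.

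With Thr starvation the 9 genes tested moved in both directions, with the JNK- and p38-directed phosphatases at the top. Dusp10 and Dusp16 rose 5.58-fold and 3.23-fold by the ratio of group means. Dusp1, Dusp4 and Dusp6 each rose by close to the same amount, 1.78-, 1.77- and 1.77-fold. Dusp2, Dusp5, Dusp7 and Dusp14 were lower, at between 0.494 and 0.806 of their unstarved level. By edgeR's quasi-likelihood test with adjustment over all genes, 5 of the 9 were called higher and 4 lower, where 63.0% of all genes were called (31.1% higher and 31.9% lower). The calls of Dusp2 and Dusp14 were each lost when certain single libraries were left out. The median change of the 9 was 0.83 on the log2 scale, beside -0.02 over all genes.

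Under Cys starvation fewer members were called. Dusp10, Dusp16 and the small phosphatase Dusp14 rose 1.89-, 1.46- and 1.66-fold, Dusp6 rose slightly, and Dusp4 fell slightly. That made 4 members called higher and 1 lower by the edgeR test, with 36.3% of all genes called (17.5% higher and 18.8% lower). Dusp1, Dusp2, Dusp5 and Dusp7 did not pass the test, and the median change of the 9 was 0.01, as over all genes. The Thr and Cys comparisons share the unstarved libraries, so their values are set side by side and the difference is read from the direct comparison of the 2 starvations.

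**Figure D1:**
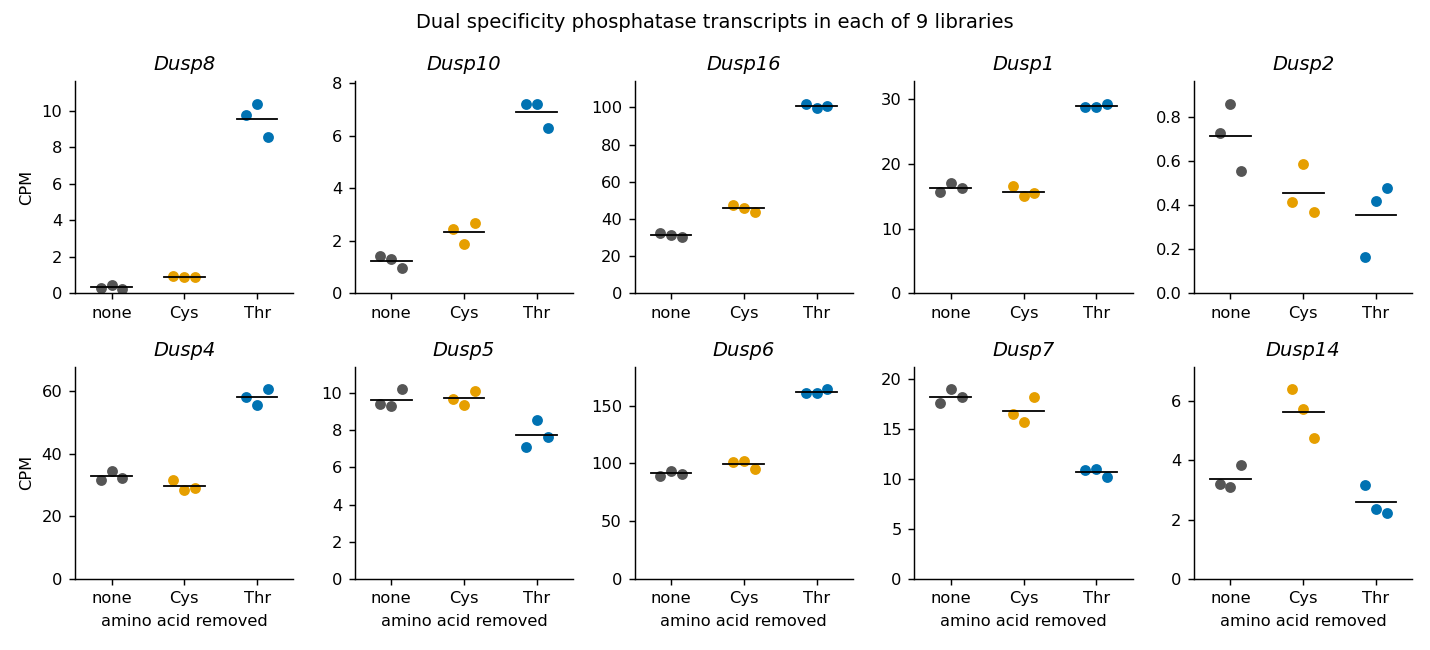
Level of each of the 10 phosphatase mRNAs in CPM (vertical axes, starting at 0 and scaled per gene) in the 3 unstarved (none), 3 Cys-starved and 3 Thr-starved libraries (horizontal axes), with a point for each library and a line at the group mean. Dusp6, Dusp8, Dusp10 and Dusp16 show 3 separate groups in the order unstarved, Cys-starved, Thr-starved, and Dusp14 is highest in the Cys-starved libraries.

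Dusp8 (ENSMUSG00000037887; GRCm38 chromosome 7, 142079490 to 142095843, minus strand) encodes a phosphatase with a preference for JNK and p38 that is best known from brain and heart. It was counted 18, 28 and 12 times in the unstarved libraries (0.298, 0.463 and 0.223 CPM), 58, 56 and 52 times in the Cys-starved libraries (0.921, 0.866 and 0.872 CPM) and 480, 495 and 628 times in the Thr-starved libraries (9.79, 10.4 and 8.56 CPM). The mRNA was thus near the lower end of detection in fed cells, and the 3 groups did not overlap. Mean levels were 0.328 ± 0.123, 0.886 ± 0.0301 and 9.58 ± 0.928 CPM (SD, n = 3 each). The ratio of means was 29.2 for Thr-starved over unstarved, 2.7 for Cys-starved over unstarved and 10.8 for Thr-starved over Cys-starved libraries. On the log2 scale the fitted differences were 4.84 (SE 0.16), 1.41 (SE 0.23) and 3.43 (SE 0.14), which ranked 5, 179 and 12 from the highest among the 20143 genes. Low counts in these tables were mostly even, so that both ends of a fragment may have been counted and the fragments behind such counts may be fewer. With an unstarved level of 12 to 28 counts, leaving out 1 library in turn moved the difference between 4.64 and 5.18 for Thr and between 1.22 and 1.75 for Cys starvation. An antisense gene, Gm32786, overlaps 66 bases (1.36%) of the Dusp8 exons, and Dusp8 shares stretches of at most 65 bases at 95% identity or more with 77 other genes. The part of such reads in its counts was not tested.

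Dusp10 (ENSMUSG00000039384; chromosome 1, 184013302 to 184075636, plus strand) also favours JNK and p38 and is known as a brake on stress kinases in immune cells. Its counts were 86, 80 and 52 in the unstarved (1.42, 1.32 and 0.964 CPM), 155, 121 and 160 in the Cys-starved (2.46, 1.87 and 2.68 CPM) and 354, 344 and 461 in the Thr-starved libraries (7.22, 7.21 and 6.28 CPM). Every Cys-starved library was above every unstarved library and below every Thr-starved library. In the edgeR test the log2 fold change was 2.47 with Thr starvation (SE 0.14, adjusted p = 6.9e-13), 0.91 with Cys starvation (SE 0.16, adjusted p = 9.7e-05) and 1.56 between Thr- and Cys-starved libraries (SE 0.13, adjusted p = 3.7e-10).

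Dusp16 (ENSMUSG00000030203; chromosome 6, 134715468 to 134792625, minus strand) encodes a JNK-directed phosphatase that shuttles between nucleus and cytoplasm, and was the most abundant of the JNK- and p38-directed members. It stood at 32.2, 31.5 and 30 CPM in the unstarved, 47.3, 45.6 and 43.9 CPM in the Cys-starved and 102, 99.5 and 101 CPM in the Thr-starved libraries. The groups were again fully apart, with a spread within each group far smaller than the distance between them. The edgeR log2 fold change was 1.69 with Thr starvation (SE 0.036, adjusted p = 1.2e-20), 0.55 with Cys starvation (SE 0.037, adjusted p = 1.0e-10) and 1.15 between the 2 starvations (SE 0.034, adjusted p = 8.1e-18). Without Dusp8, which also showed it, 3 of the 9 members (Dusp6, Dusp10 and Dusp16) had libraries that stood apart in the order unstarved, Cys-starved, Thr-starved, an order shown by 8.45% of all genes (1702 of 20143).

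**Figure D2:**
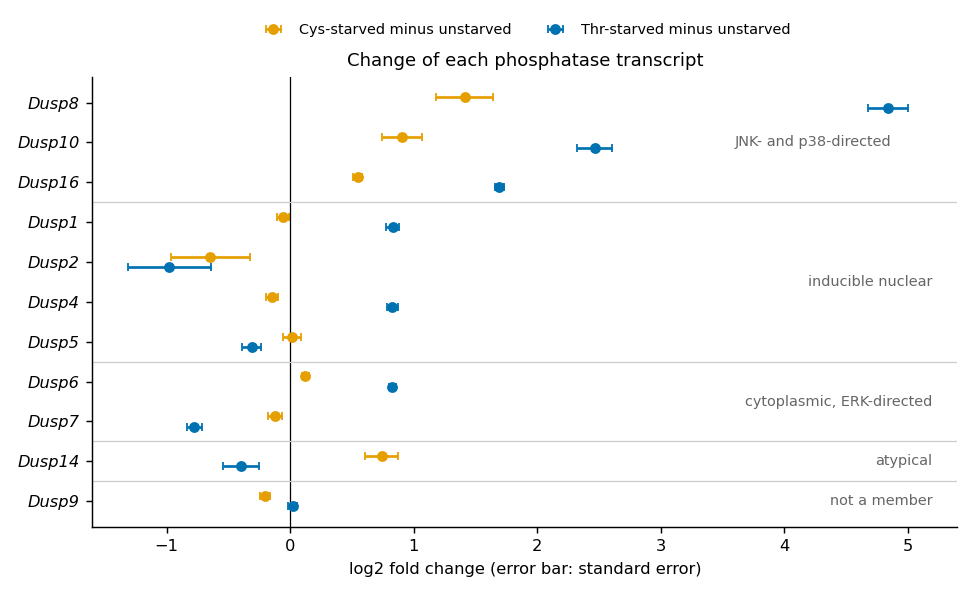
Log2 fold change (horizontal axis) of each phosphatase mRNA (vertical axis) for Cys-starved (orange) and Thr-starved (blue) minus unstarved libraries, with points for the edgeR estimate and bars for its SE, ordered by class. The JNK- and p38-directed members (Dusp10, Dusp16 and Dusp8, whose response chose the group) lie to the right under both starvations. Dusp1 and Dusp4 lie to the right under Thr starvation at 0.83, and at -0.06 and -0.15 under Cys starvation.

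Among the inducible nuclear phosphatases, Dusp1 and Dusp4 rose with Thr starvation while Dusp2 and Dusp5 were called lower. Dusp1 (ENSMUSG00000024190; chromosome 17, 26505590 to 26562128, minus strand), an immediate early gene whose product acts on p38, JNK and ERK, was at 15.7, 17.1 and 16.2 CPM in the unstarved, 16.5, 15.0 and 15.5 CPM in the Cys-starved and 28.8, 28.8 and 29.3 CPM in the Thr-starved libraries. Unstarved and Cys-starved libraries overlapped, and the Thr-starved libraries stood above both. The edgeR log2 fold change was 0.83 with Thr starvation (SE 0.050, adjusted p = 1.1e-12), -0.06 with Cys starvation (SE 0.052, adjusted p = 0.42) and 0.89 between the starvations (SE 0.049, adjusted p = 3.9e-13).

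Dusp4 (ENSMUSG00000031530; chromosome 8, 34807297 to 34819894, plus strand) acts in the nucleus on ERK and JNK. Its levels were 31.7, 34.5 and 32.2 CPM in the unstarved, 31.5, 28.4 and 29.0 CPM in the Cys-starved and 58.2, 55.6 and 60.5 CPM in the Thr-starved libraries. The Thr-starved libraries were well above the rest, and the Cys-starved libraries lay just under the unstarved ones. With Thr starvation the edgeR log2 fold change was 0.83 (SE 0.045, adjusted p = 1.8e-13), and against Cys-starved libraries it was 0.97 (SE 0.045, adjusted p = 1.3e-14). The change with Cys starvation was -0.15 (SE 0.046, edgeR adjusted p = 0.016), a call that was lost without unstarved library 2 (-0.11, adjusted p = 0.11), Cys-starved library 2 (-0.12, adjusted p = 0.092) or Cys-starved library 3 (-0.13, adjusted p = 0.058).

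Dusp5 (ENSMUSG00000034765; chromosome 19, 53529109 to 53542431, plus strand) is specific for ERK, which it also anchors in the nucleus. It was at 9.41, 9.33 and 10.2 CPM in the unstarved, 9.70, 9.34 and 10.1 CPM in the Cys-starved and 7.10, 8.53 and 7.66 CPM in the Thr-starved libraries. The first 2 groups covered the same range and the Thr-starved libraries lay below it. The edgeR log2 fold change was -0.31 with Thr starvation (SE 0.076, adjusted p = 0.0011) and -0.33 against Cys-starved libraries (SE 0.076, adjusted p = 0.00071). With Cys starvation it was 0.01 (SE 0.073, adjusted p = 0.92). An antisense gene, AC137853.2, covers 547 bases (22.1%) of the Dusp5 exons, and its share of the counts was not tested.

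Dusp2 (ENSMUSG00000027368; chromosome 2, 127336159 to 127338376, plus strand), a nuclear phosphatase best known from activated lymphocytes, was barely expressed. Its counts were 44, 52 and 30 in the unstarved (0.728, 0.860 and 0.556 CPM), 26, 38 and 22 in the Cys-starved (0.413, 0.587 and 0.369 CPM) and 8, 20 and 35 in the Thr-starved libraries (0.163, 0.419 and 0.477 CPM). The Thr-starved libraries spread widely among themselves and lay below the unstarved ones. By edgeR Dusp2 was called lower with Thr starvation (log2 fold change -0.98, SE 0.34, adjusted p = 0.015), but not without unstarved library 2 (-0.82, adjusted p = 0.073) or Thr-starved library 1 (-0.66, adjusted p = 0.083). No call was made with Cys starvation (-0.65, SE 0.32, adjusted p = 0.13) or between the starvations (-0.33, SE 0.35, adjusted p = 0.43), where the value ran from -0.65 without Thr-starved library 3 to -0.01 without Thr-starved library 1.

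The cytoplasmic, ERK-directed phosphatases moved in opposite directions. Dusp6 (ENSMUSG00000019960; chromosome 10, 99263231 to 99267489, plus strand), the feedback inhibitor that is a standard readout of ERK activity, was the most abundant member in every library. It stood at 89.4, 93.5 and 91.0 CPM in the unstarved, 101, 102 and 95 CPM in the Cys-starved and 161, 161 and 164 CPM in the Thr-starved libraries. The Cys-starved libraries lay just above the unstarved ones, and the Thr-starved libraries far above both. The edgeR log2 fold change was 0.83 with Thr starvation (SE 0.030, adjusted p = 1.2e-16), 0.12 with Cys starvation (SE 0.030, adjusted p = 0.0022) and 0.70 between the starvations (SE 0.029, adjusted p = 2.4e-15). Scaled by the deposited size factors, the change with Cys starvation was 0.08 (edgeR adjusted p = 0.040).

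Dusp7 (ENSMUSG00000053716; chromosome 9, 106368632 to 106375724, plus strand), its close relative with the same preference for ERK, was at 17.6, 19.0 and 18.2 CPM in the unstarved, 16.5, 15.7 and 18.2 CPM in the Cys-starved and 10.9, 11 and 10.2 CPM in the Thr-starved libraries. All Thr-starved libraries were below all others, whereas the other groups overlapped. The edgeR log2 fold change was -0.78 with Thr starvation (SE 0.063, adjusted p = 2.4e-10) and -0.65 against Cys-starved libraries (SE 0.063, adjusted p = 5.0e-09). With Cys starvation it was -0.12 (SE 0.059, adjusted p = 0.12), and it was called lower when scaled by the deposited size factors (-0.16, adjusted p = 0.031) and without Cys-starved library 3 (-0.18, adjusted p = 0.028). Dusp7 shares stretches of at most 60 bases with 16 other genes at 95% identity or more, and the effect of such reads was not tested.

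Dusp14 (ENSMUSG00000018648; chromosome 11, 84048041 to 84069261, minus strand) is a small atypical phosphatase that lacks the MAP kinase binding domain, and it was highest in Cys-starved cells. Its counts were 193, 188 and 208 in the unstarved (3.19, 3.11 and 3.86 CPM), 403, 372 and 284 in the Cys-starved (6.40, 5.75 and 4.76 CPM) and 156, 113 and 162 in the Thr-starved libraries (3.18, 2.37 and 2.21 CPM). The Cys-starved libraries were above all others, and the highest Thr-starved library overlapped the unstarved ones. The edgeR log2 fold change was 0.74 with Cys starvation (SE 0.13, adjusted p = 9.0e-05) and -1.14 between Thr- and Cys-starved libraries (SE 0.14, adjusted p = 1.5e-07). With Thr starvation it was -0.40 (SE 0.15, adjusted p = 0.020), and that call was lost without unstarved library 3 (-0.30, adjusted p = 0.11), Thr-starved library 2 (-0.36, adjusted p = 0.067) or Thr-starved library 3 (-0.28, adjusted p = 0.13).

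In the direct comparison of Thr-starved with Cys-starved libraries, 8 of the 9 members passed the edgeR test, 5 higher and 3 lower after Thr starvation, where 62.0% of all genes passed (30.4% higher and 31.6% lower). Dusp2 was the exception. The libraries of the 2 groups did not overlap for 8 of the 9, 5 higher and 3 lower, beside 65.8% of all genes (32.1% higher and 33.6% lower). Against unstarved libraries, the groups were apart for 8 of the 9 with Thr starvation, again 5 higher and 3 lower (66.5% of all genes, 32.6% higher and 33.9% lower). With Cys starvation they were apart for 5 of the 9, 4 higher and 1 lower (46.4% of all genes, 23.0% higher and 23.5% lower). The share of members called was thus above that of all genes in each comparison, a description to which no test was attached. All genes here include those with very few counts. Of 16897 genes with at least 10 counts in every library, 11956 were called with Thr starvation and 7325 with Cys starvation. Between the starvations 11792 were called, and each of these shares was larger than over all genes. In that fit 8, 5 and 8 members were called, of 8 left without Dusp8. The median change of the 9 between the starvations was 0.70, beside -0.02 over all genes.

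The remaining typical MAP kinase phosphatase, Dusp9, an ERK-directed X-linked gene that is highly expressed in ES cells, was outside the group and gave a contrast to Dusp6. It was at 51.0, 55.4 and 51.9 CPM in the unstarved, 46.9, 46.9 and 43.4 CPM in the Cys-starved and 52.2, 54.9 and 53.4 CPM in the Thr-starved libraries. The Thr-starved libraries fell within the unstarved range, and the Cys-starved libraries below it. In the edgeR test the log2 fold change was 0.02 with Thr starvation (SE 0.039, adjusted p = 0.70) and -0.21 with Cys starvation (SE 0.039, adjusted p = 0.00023).

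For a comparison of levels between genes, CPM were divided by the length of the exons in kb. Dusp6 led in every group at 29.2, 31.7 and 51.7 CPM per kb (unstarved, Cys-starved and Thr-starved means), followed by Dusp4 at 12.0, 10.8 and 21.2 CPM per kb. Dusp16 ranked 5 in the unstarved cells at 4.0 CPM per kb and 3 after either starvation, at 5.84 and 12.9 CPM per kb. Dusp8 ranked last in unstarved and Cys-starved cells, at 0.0673 and 0.182 CPM per kb, and 8 after Thr starvation, at 1.97 CPM per kb, where its libraries overlapped those of Dusp10 at 2.27 CPM per kb. Other neighbours in the order whose libraries overlapped were Dusp16 with Dusp5 and Dusp10 with Dusp2 in unstarved, Dusp7 with Dusp1 and Dusp2 with Dusp8 in Cys-starved, and Dusp7 with Dusp5 in Thr-starved cells. With the longest transcript as the length, Dusp1 and Dusp16 ranked above Dusp7 in unstarved cells, and Dusp1 above Dusp7 in Cys-starved cells.

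Summed over the 10 genes, the level was 62.0 ± 1.56 CPM per kb in unstarved, 66.1 ± 1.91 in Cys-starved and 106.6 ± 0.808 in Thr-starved libraries (SD, n = 3 each). Dusp6 contributed 47.1%, 48.0% and 48.4% of this sum, so its share hardly moved while the sum grew. The JNK- and p38-directed genes made up 7.23% ± 0.438 of the sum in the unstarved, 10.3% ± 0.161 in the Cys-starved and 16.1% ± 0.465 in the Thr-starved libraries (SD, n = 3 each), with Dusp16 supplying most of it. Dusp8 remained a small part of the sum, at 0.108%, 0.275% and 1.85%. Dusp7 made up 8.79%, 7.58% and 2.99% of the sum. The nuclear genes made up 34.1% in unstarved, 29.8% in Cys-starved and 31.2% in Thr-starved libraries, while their summed level was 21.1, 19.7 and 33.3 CPM per kb. Dusp14 made up 2.81%, 4.37% and 1.2%. These shares include Dusp8 and carry no test.

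**Figure D3:**
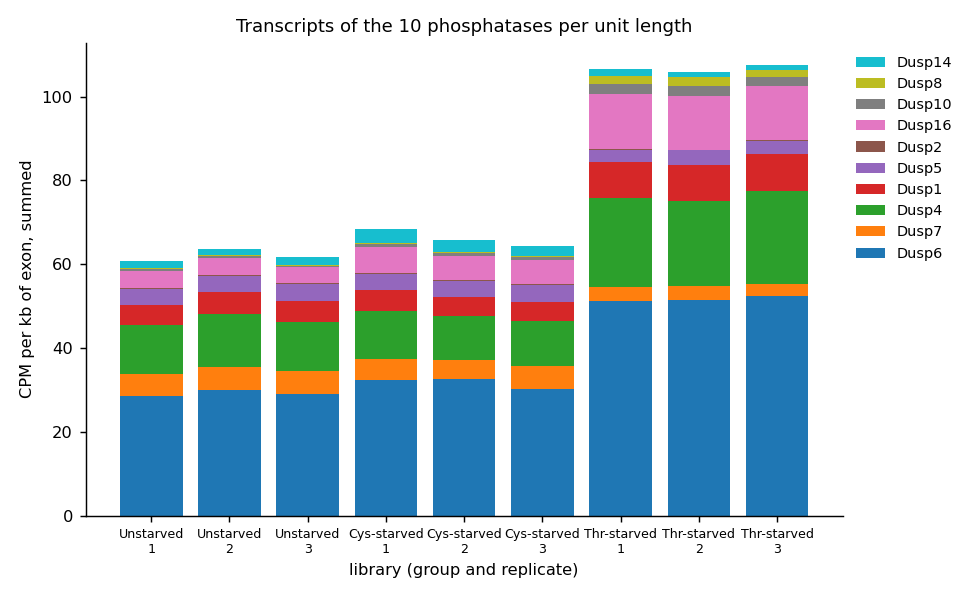
Stacked levels of the 10 phosphatase mRNAs in CPM per kb of exon (vertical axis, from 0) in each of the 9 libraries (horizontal axis). Dusp6 forms the base of each bar at 47.1%, 48.0% and 48.4% of the group means, and the bars of the Thr-starved libraries reach 105.8 to 107.5 CPM per kb.

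Beyond the group, the other dual specificity phosphatases in the table (12 of 17 listed) gave 8 calls higher, 3 lower and 1 without a call with Thr starvation, and 3, 1 and 8 with Cys starvation, with median log2 changes of 0.36 and 0.15. Over all genes 63.0% were called with Thr starvation and 36.3% with Cys starvation, near the share of this list under Cys starvation. Dusp3, a small phosphatase of ERK and JNK, rose from 11.1 ± 0.241 to 22.1 ± 0.386 CPM with Thr starvation (SD, n = 3; log2 fold change 0.99, edgeR adjusted p = 1.2e-13) and stood at 11.1 CPM after Cys starvation. Dusp11, a phosphatase of RNA, rose by 0.48 on the log2 scale with Thr starvation (edgeR adjusted p = 4.7e-13), and Dusp27 changed by -0.34 (edgeR adjusted p = 2.8e-05). With Cys starvation the largest increases were those of Dusp22 (0.51, edgeR adjusted p = 8.7e-06) and the pseudophosphatase Styx (0.30, edgeR adjusted p = 2.4e-06). Of the tyrosine phosphatases of MAP kinases, only Ptpn7 of 3 was in the table, and it changed by -0.65 with Thr starvation (edgeR adjusted p = 0.044), with overlapping libraries.

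Genes of the kinase modules on which these phosphatases act were called in both directions, as were all genes (31.1% higher and 31.9% lower with Thr starvation, 17.5% and 18.8% with Cys starvation). In the ERK module, from adaptors to the kinases (16 genes), 6 were called higher and 9 lower with Thr starvation (median -0.26), and 4 higher and 3 lower with Cys starvation (median 0.03). The kinases Araf and Braf rose by 0.89 and 0.71 on the log2 scale with Thr starvation (edgeR adjusted p = 1.2e-15 and 1.0e-13). The scaffold Ksr1 and the ERK kinase Map2k1 changed by -1.81 and -0.82 (edgeR adjusted p = 3.0e-14 and 1.3e-15). Under Cys starvation Sos2 rose by 0.41 (edgeR adjusted p = 0.00067) and Araf by 0.23 (edgeR adjusted p = 2.7e-05), while Hras changed by -0.30 (edgeR adjusted p = 6.1e-07).

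Target and feedback genes of ERK (18 genes) allow the rise of Dusp6 to be set beside other readouts of the same kinase. With Thr starvation 6 were called higher and 10 lower, with a median of -0.10, where 31.1% of all genes were called higher and 31.9% lower. Spred3 and Ier2 rose by 0.79 and 0.56 on the log2 scale (edgeR adjusted p = 8.3e-09 and 4.9e-15). Ccnd1, the cyclin of G1 entry, went from 117 ± 2.97 to 31.8 ± 1.79 CPM and Myc from 88.6 ± 1.01 to 34.9 ± 2.06 CPM (SD, n = 3), changes of -1.88 and -1.34 (edgeR adjusted p = 1.7e-21 and 8.8e-19). With Cys starvation 9 of the 18 were called lower by edgeR and 9 were not called, where 17.5% of all genes were called higher and 18.8% lower. Those called lower included the feedback inhibitors Spry1 (-0.54, edgeR adjusted p = 1.8e-06) and Spred2 (-0.42, edgeR adjusted p = 1.1e-07). Spry2 was higher after Thr than after Cys starvation by 0.66 (edgeR adjusted p = 2.8e-15).

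In the JNK module (17 of 18 genes in the table), 8 genes were called higher and 7 lower with Thr starvation (median -0.08). With Cys starvation 4 were called higher and 1 lower (median 0.06). Of all genes, 63.0% were called with Thr and 36.3% with Cys starvation, and no difference between the shares was tested. The upstream kinases Map3k20 and Map3k7 rose by 0.64 and 0.57 with Thr starvation (edgeR adjusted p = 8.1e-09 and 1.6e-13), and Map3k11 and Map3k9 changed by -0.56 and -0.50 (edgeR adjusted p = 4.9e-10 and 2.6e-06). With Cys starvation Map3k10 and the JNK gene Mapk8 rose by 0.21 and 0.14 (edgeR adjusted p = 0.0066 and 0.019), and Map3k1 changed by -0.12 (edgeR adjusted p = 0.030). In the p38 module (10 genes), 2 were called higher and 6 lower with Thr starvation (median -0.41), with Mapk11 at -1.06 and Map2k6 at -0.99 (edgeR adjusted p = 5.3e-11 and 3.8e-10) and Mapkapk2 at 0.22 (edgeR adjusted p = 8.0e-05). With Cys starvation 2 were called higher and 1 lower, with Tab1 at 0.33, Map2k6 at 0.19 and Mapkapk3 at -0.32 (edgeR adjusted p = 6.9e-05, 0.048 and 1.6e-07).

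Of the 6 substrates of JNK and AP-1 genes, 5 were called higher and 1 lower with Thr starvation (median 0.80), where 31.1% of all genes were called higher and 31.9% lower. With Cys starvation 3 were called higher and 1 lower and 2 were not called (median 0.15), where 17.5% of all genes were called higher and 18.8% lower. Jun, the best known substrate of JNK, stood at 6.02 ± 0.663, 11.4 ± 0.393 and 45.1 ± 0.892 CPM in unstarved, Cys-starved and Thr-starved cells (SD, n = 3 each). It rose by 2.91 with Thr and by 0.92 with Cys starvation on the log2 scale (edgeR adjusted p = 9.7e-21 and 4.5e-10). Atf3, a stress-induced factor, rose by 3.06 and 2.61 (edgeR adjusted p = 7.3e-21 and 2.3e-18). Elk1 changed by -0.44 with Thr starvation (edgeR adjusted p = 5.0e-07). Junb changed by -0.35 with Cys starvation but rose by 0.96 with Thr starvation (edgeR adjusted p = 1.6e-07 and 4.3e-16). Among the other MAP kinases (6 genes), 2 were called higher and 3 lower with Thr starvation (median -0.32), with Mapk4 at 0.88 and Nlk at 0.45 against Mapk7 at -0.79 and Mapk6 at -0.59 (edgeR adjusted p = 1.7e-12, 3.3e-11, 4.6e-15 and 5.7e-15). Only Nlk was called with Cys starvation, at 0.14 (edgeR adjusted p = 0.0017).

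Between Thr- and Cys-starved cells, the edgeR test called 6 higher and 4 lower of the 12 other dual specificity phosphatases, 6 and 8 of the 16 ERK module genes, 7 and 7 of the 18 ERK targets, 7 and 9 of the 17 JNK module genes, 5 and 1 of the 6 JNK substrates and AP-1 genes, 2 and 6 of the 10 p38 module genes, and 2 and 3 of the 6 other MAP kinases. The median differences were 0.19, -0.11, 0.06, -0.23, 0.46, -0.38 and -0.37 on the log2 scale, beside -0.02 over all genes, of which 30.4% were called higher and 31.6% lower.

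**Figure D4:**
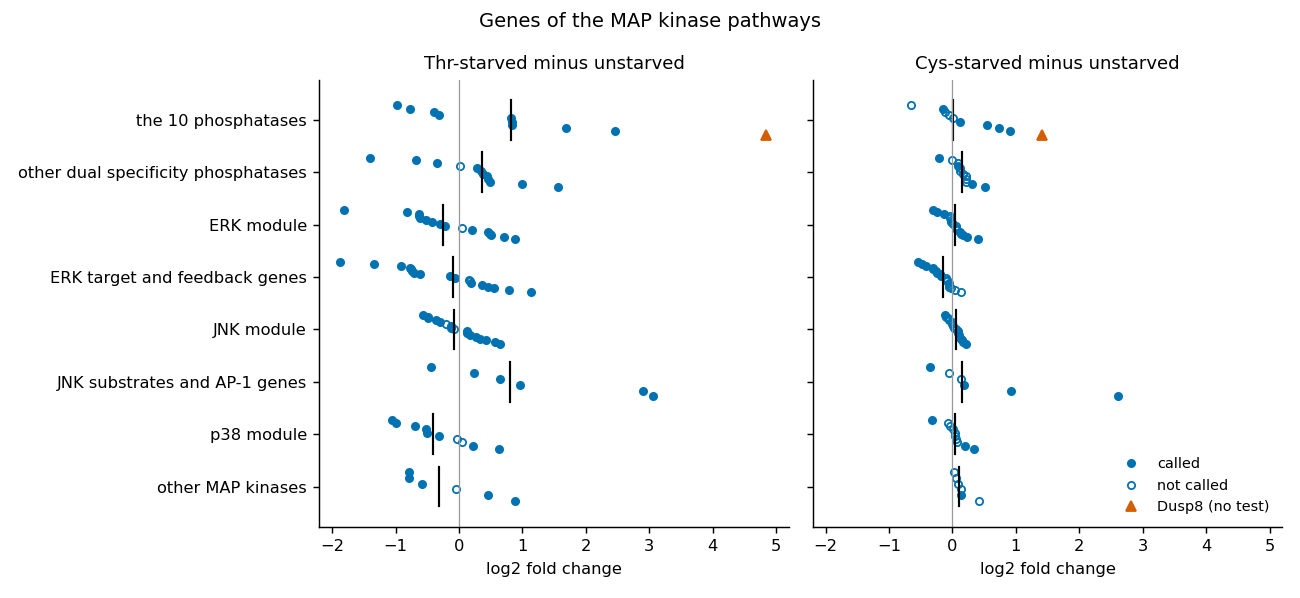
Log2 fold change (horizontal axes) of each gene in the phosphatase group and 7 lists of related genes (vertical axis) for Thr-starved (left) and Cys-starved (right) minus unstarved libraries. Filled points passed the edgeR test, open points did not, the triangle is Dusp8 without a test, and the vertical bars give the median of each list (for the phosphatases, of the 9 without Dusp8), which is highest under Thr starvation for the phosphatases at 0.83 and for the JNK substrates and AP-1 genes at 0.80.

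The genes whose levels followed Dusp8 most closely over the 9 libraries were Gadd45g, 2410006H16Rik, Dll1, Jun and Tent5a, out of 11410 genes that averaged 5 CPM or more. Likeness was the root mean square difference of log2(CPM + 0.5), each gene centred on its own mean, and was 0.213, 0.269, 0.300, 0.423 and 0.481 in that order. Gadd45g, which activates an upstream kinase of p38 and JNK, was at 1.13, 1.56 and 15.7 CPM in unstarved, Cys-starved and Thr-starved cells. Dll1, a Notch ligand, was at 1.38, 1.83 and 14.5 CPM, and the noncoding 2410006H16Rik at 25.8, 39.9 and 223.9 CPM. Gadd45g, Dll1 and Tent5a reached that average only through the Thr-starved libraries, so the filter favours this pattern. These genes were selected for their likeness, so their values are a description, and all points share the same 9 libraries.

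**Figure D5:**
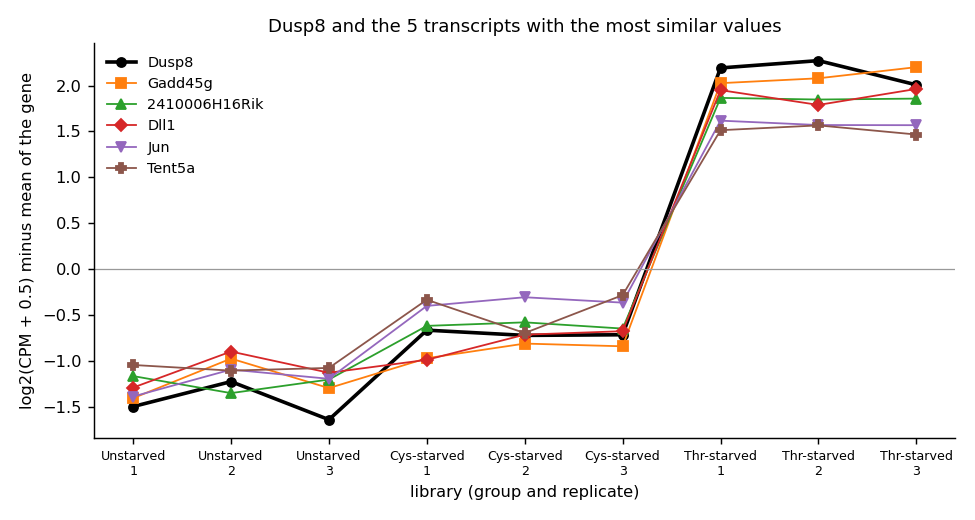
Centred log2(CPM + 0.5) (vertical axis) of Dusp8 and the 5 genes most like it in each of the 9 libraries (horizontal axis), with lines joining the libraries of a gene only to guide the eye. The 6 genes lie lowest in unstarved, between in Cys-starved and highest in Thr-starved libraries, except for Dll1, whose unstarved library 2 lies above Cys-starved library 1.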

How the data were processed

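RNA-seq libraries of E14 cells (3 unstarved, 3 Cys-starved and 3 Thr-starved) were analysed from the deposited tables. The column names of the unstarved libraries alone carried an extra token that no label explains. Any difference it may mark cannot be told apart from starvation. Per the labels and methods, the authors mapped paired-end reads to GRCm38 with STAR 2.7.4a and deposited HTSeq counts per gene without normalization. The authors also deposited a normalized table, a signal obtained by dividing these counts by a size factor per library, which was used only for an alternative. HTSeq's settings for strand and overlapping genes were not given in the sources used here. Of 28226 values from 1 to 20 counts, 67.8% were even, so both ends of a fragment may have been counted and a low count may stand for fewer fragments, which was not tested.

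Gene symbols came from GENCODE M21 for 20161 of 20189 genes. Counts were tested with edgeR 4.0.16 in R 4.3.3 (TMM normalization, quasi-likelihood test, 1 fit over the 3 groups), on 20143 genes with at least 1 count, and genes were called where p, adjusted over all of them by the Benjamini-Hochberg method, was at most 0.05. The biological coefficient of variation was 3.53%. Scripts were tested on simulated counts. All members were named, and from each list up to 2 called genes with the largest change in each direction in each comparison, with a mean of at least 5 CPM and libraries that did not overlap, which Ptpn7 did not meet. A gene that this rule names is not reported here. The members, classes and lists were chosen with earlier results of these data known. Stretches shared with other genes were searched with BLAST 2.17.0 (at least 43 bases and 95% identity). Alternatives were DESeq2 1.42.0, RLE normalization, the deposited size factors, 2 filters, thinned counts, the 2 groups alone, stricter thresholds, a replicate block and leaving out each library.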

Additional observations from a re-analysis of the deposited data

How the results depend on the processing

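The number of members called was 9 with Thr starvation, 5 with Cys starvation and 8 between the starvations, and it stayed within 8 to 9, 4 to 5 and 8 to 8 when each library was left out in turn. With a log2 fold change of at least 1 required as well, these numbers were 2, 0 and 3, and the numbers of all genes called were 2668, 296 and 2303. At an adjusted p of 0.01 or less, 7, 4 and 8 members and 11031, 5540 and 10785 of all 20143 genes were called. The replicate numbers did not pair the libraries, as correlations of the deviations of same-numbered libraries ran from -0.24 to 0.11. With the replicate number as a block, 9, 5 and 8 members and 12488, 7063 and 12334 genes were called by edgeR, and no call of a member changed. With the deposited size factors, 36.8% of the genes called under Cys starvation were higher, beside 48.2%, and 4 members were called higher and 2 lower. Dusp5 under Cys starvation, which was never called, changed sign with the deposited size factors (-0.0285) and in leave-one-out fits (between -0.0168 and -0.0062 without unstarved library 1 or 2 or Cys-starved library 3, and up to 0.0522 otherwise). A minimum of 10 counts in every library dropped Dusp2, so that it has no value there. Depth limits Dusp2 and Dusp8 most, with 8 and 12 counts in their lowest libraries, and possibly fewer fragments.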

Other observations

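A few related genes under a mean of 5 CPM, singled out after their values were seen, also changed with Thr starvation. Dusp26, an atypical phosphatase best known from brain, stood at 0.562 ± 0.0322, 0.651 ± 0.0254 and 1.65 ± 0.211 CPM in unstarved, Cys-starved and Thr-starved cells (SD, n = 3 each). By edgeR it rose by 1.56 on the log2 scale when Thr was removed (adjusted p = 5.4e-07), and the value without Cys was 0.21 (adjusted p = 0.51). Dusp19, which binds the JNK pathway's kinases, stood at 4.84 ± 0.539, 5.23 ± 0.374 and 3.02 ± 0.110 CPM and changed by -0.67 with Thr starvation (edgeR adjusted p = 8.6e-06). Dusp23 stood at 0.439 ± 0.0283, 0.512 ± 0.0598 and 0.166 ± 0.0850 CPM, near the lower end of detection. It changed by -1.40 with Thr starvation (SE 0.39, edgeR adjusted p = 0.0032). Fos, the AP-1 partner of Jun, stood at 1.82 ± 0.272, 1.69 ± 0.190 and 4.0 ± 0.463 CPM and rose by 1.13 with Thr starvation (edgeR adjusted p = 2.4e-07).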
